A study of Mus musculus with 3 samples.

Results

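Myc and the genes of ribosome biogenesis were followed in CT26, a mouse colon carcinoma line, in lines with control, medium and high levels of one microRNA cluster. The 41 genes were chosen by name, with earlier results of these data known. They are Myc network factors, ribosome biogenesis genes and related enzymes and chaperonins. Single-gene probe sets measured 39 of them, out of 19938 genes measured in all. Ppan and Impdh2 had no single-gene probe set and have no value here. A filter on low values (a mean over the columns of at least 7.13, the median of all genes) was passed by 38 members and by 9969 genes. Mycn was the member that did not pass.

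Cells had been transfected with a plasmid for a control microRNA (miR-Ctrl, Ctrl below) or for the cluster. All lines carried puromycin resistance and GFP, were selected and sorted on them, and were grown from single cells. Lines with medium (miR-17~92Med, Med) and high levels of the cluster (miR-17~92Hi, Hi) were labelled apart. The design text names 3 subclones in each group, but each group has 1 column of log2 values, and how subclones entered a column is not stated by the labels or the design text. With 1 column a group there was no replicate error, no test and no p-value, so higher and lower describe these columns. Less RNA per cell and fewer cells of a kind cannot be told apart in RNA from whole cultures.

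Myc is a transcription factor that pairs with Max, binds E-box sequences in promoters and raises genes for ribosome production, nucleotide and polyamine synthesis and protein folding. Mxd1 and Mxi1 also pair with Max and repress such promoters. Ribosome biogenesis starts in the nucleolus, where RNA polymerase I copies the ribosomal DNA. Small nucleolar ribonucleoproteins (snoRNPs) then modify the ribosomal RNA, and helicases and assembly factors shape it into subunits. Myc is a known activator of this cluster, and both act as oncogenes in several tumours.

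A mature strand of each microRNA of the cluster is shown because these microRNAs are what the lines were built to vary. The opposite strands that RefSeq lists (miR-17-3p, miR-18a-3p, miR-20a-3p, miR-19b-1-5p and miR-92a-1-5p) are not shown. The strands shown are from RefSeq (GRCm38.p6, plus strand), written 5′ to 3′ with the seed, bases 2 to 8, in capitals. The miR-17-5p (chr14:115043684-115043706) and miR-20a-5p (chr14:115044183-115044205) strands share one seed, and miR-19a-3p (chr14:115044048-115044070) and miR-19b-3p (chr14:115044358-115044380) share another. The seeds of miR-18a-5p (chr14:115043867-115043889) and miR-92a-3p (chr14:115044476-115044496) are each their own.
miR-17-5p: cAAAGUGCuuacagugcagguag
miR-20a-5p: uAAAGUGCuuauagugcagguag
miR-18a-5p: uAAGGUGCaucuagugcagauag
miR-19a-3p: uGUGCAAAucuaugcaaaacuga
miR-19b-3p: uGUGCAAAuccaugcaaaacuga
miR-92a-3p: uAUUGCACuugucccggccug

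The E-box CACGTG is the site that Myc and Max prefer. The members were chosen by name and not by this motif. The choice took Myc network factors and genes of pathways that Myc raises, so a higher share of E-boxes is not separate evidence. RefSeq promoter windows (GRCm38.p6, 250 bases before to 50 after each start) were found for 33 members, 50 windows in all. The E-box, which reads the same on both strands, stood in 12 of these 50 windows (24.0%). It stood in 7.15% of all 32851 windows and in 10.3% of the 10249 windows of genes past the filter. Windows of a gene can overlap, and the same Eif5a motif is counted 74 and 185 bases before different starts. By gene, 9 of 33 members held the E-box in at least 1 window (27.3%). Of the 8052 genes past the filter with a window, 12.3% did. A gene with more windows has more chances to hold the motif, and windows per gene were not matched. The variant CACGCG, searched on both strands as CACGCG and CGCGTG, also stood in 12 member windows (24.0%), against 17.9% of windows of genes past the filter. The median GC content was 61.5% in member windows and 61.3% in windows of genes past the filter, and 52.7% in all windows. A match of letters does not show binding.

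The stretches around the E-box are shown for the measured members that hold it, with the motif in capitals and up to 40 bases on either side, on the strand of the gene. Members with several starts have several windows, and the E-box nearest to a start is printed for each gene. The Max stretch (chr12:76962206-76962291, minus strand) begins its motif 3 bases before the start. Those of Nop2 (chr6:125131783-125131868, plus) and Hspd1 (chr1:55088278-55088363, minus) begin theirs 60 and 80 bases before. Motifs of Nme1 (chr11:93968245-93968330, minus) and Eif5a (chr11:69921415-69921500, minus) begin 18 and 74 bases before. The Pes1 motif (chr11:3963937-3964022, plus) begins 2 bases after the start, and that of Utp20 (chr10:88826765-88826817, minus) 37 after. The Eif4e motif shown (chr3:138527164-138527249, plus) begins 64 bases before the start, and another lies farther upstream.
Max: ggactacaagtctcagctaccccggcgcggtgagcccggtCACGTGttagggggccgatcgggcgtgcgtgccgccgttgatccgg
Nop2: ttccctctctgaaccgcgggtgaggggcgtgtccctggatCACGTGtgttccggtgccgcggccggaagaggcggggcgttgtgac
Pes1: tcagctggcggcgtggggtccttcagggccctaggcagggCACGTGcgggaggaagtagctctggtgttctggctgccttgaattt
Utp20: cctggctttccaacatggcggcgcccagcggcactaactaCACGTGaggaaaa
Nme1: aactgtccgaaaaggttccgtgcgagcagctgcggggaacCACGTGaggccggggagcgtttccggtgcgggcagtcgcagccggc
Eif4e: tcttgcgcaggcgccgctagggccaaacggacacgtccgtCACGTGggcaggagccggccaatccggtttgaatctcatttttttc
Eif5a: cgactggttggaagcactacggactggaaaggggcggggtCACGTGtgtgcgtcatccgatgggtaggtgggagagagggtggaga
Hspd1: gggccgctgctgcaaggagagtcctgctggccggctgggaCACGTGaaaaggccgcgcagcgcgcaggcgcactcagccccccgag

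The columns differ as wholes, which touches every comparison with Ctrl. Column medians over 35556 probe sets were 6.95 (Ctrl), 6.65 (Med) and 6.66 (Hi). For genes past the filter, Med minus Ctrl had a median of 0.42 and Hi minus Ctrl one of 0.39, and each member value is to be read against it. Olfactory and vomeronasal receptor genes, which such cells are not known to use, had medians of 4.92, 4.51 and 4.51 (n = 1194). Their highest values were 10.01, 8.85 and 8.85, so a value above these medians is not thereby shown to be above background. The mitochondrial mRNAs COX2 and ND3, present in any cell, lay between 5.07 and 6.00 in Ctrl, between 12.49 and 13.40 in Med and between 12.21 and 13.31 in Hi. B2m, a gene of nearly all nucleated cells that was picked after its values were seen, was at 6.19, 13.20 and 13.15. Such levels are unusual for living cells, and these files cannot show whether the Ctrl column holds RNA of the labelled line in a usual state. Every difference from Ctrl below depends on that column, and the part of these shifts in the members' differences was not tested. Med and Hi held the same value to within 1e-06 in 43.7% of probe sets, and 7.92% of probe sets were identical in all columns. Of 14 intestinal and epithelial markers, 5 passed the filter, and they lay on opposite sides of Ctrl. The keratin Krt18 was at 7.97, 11.41 and 12.28, while Krt8 was at 8.92, 7.28 and 7.32. Cdx1 was at 8.95, 7.24 and 7.45 and Cldn3 at 8.77, 7.15 and 7.37, and Krt19 at 7.50, 7.50 and 7.87. Epcam (6.15, 5.14 and 5.14), Cdh1 and Vil1 did not pass the filter. Leukocyte markers passed in 1 of 7 measured, endothelial markers in 0 of 5 and fibroblast markers in 4 of 7. Of the fibroblast markers, Acta2 (9.67, 6.42 and 6.42) and Col3a1 (7.80, 6.98 and 6.99) were under 7.13 in Med and Hi and passed through Ctrl. Col1a1 was at 8.76, 7.44 and 7.57 and Col1a2 at 8.60, 7.29 and 7.37. Summed log2 values of the epithelial list were 104.5, 95.1 and 97.3 in Ctrl, Med and Hi, those of the leukocyte list 44.1, 39.9 and 40.3, of the endothelial list 32.5, 28.8 and 28.5, and of the fibroblast list 52.8, 43.5 and 43.8.

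Among the Myc network factors, Myc itself was far higher in both cluster columns than in Ctrl, while its partner Max and the repressors Mxd1 and Mxi1 lay within 0.40 of Ctrl. Myc was at 8.48 (Ctrl), 12.21 (Med) and 12.06 (Hi), a difference of 3.73 for Med and 3.58 for Hi. Under the other scalings and probe choices tried, the Hi difference of Myc lay between 2.68 and 3.87, so it was over 2-fold in each. Max was at 9.36, 9.27 and 9.27. Mxd1 was at 8.36 in Ctrl and Hi and at 8.75 in Med. Mxi1 was at 8.53 in every column, an exact tie that no other member showed. With quantile normalization Max was 2-fold lower than Ctrl (-1.08 in Med, -1.04 in Hi), and with columns centred on probe sets it was 0.21 and 0.20 higher. For Mxd1 and Mxi1 the sign of the difference also turned or appeared with the scaling. Mycn, a relative of Myc expressed mainly in neural and embryonic tissue, was at 7.33, 6.09 and 6.09, below the filter.

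**Figure D1:**
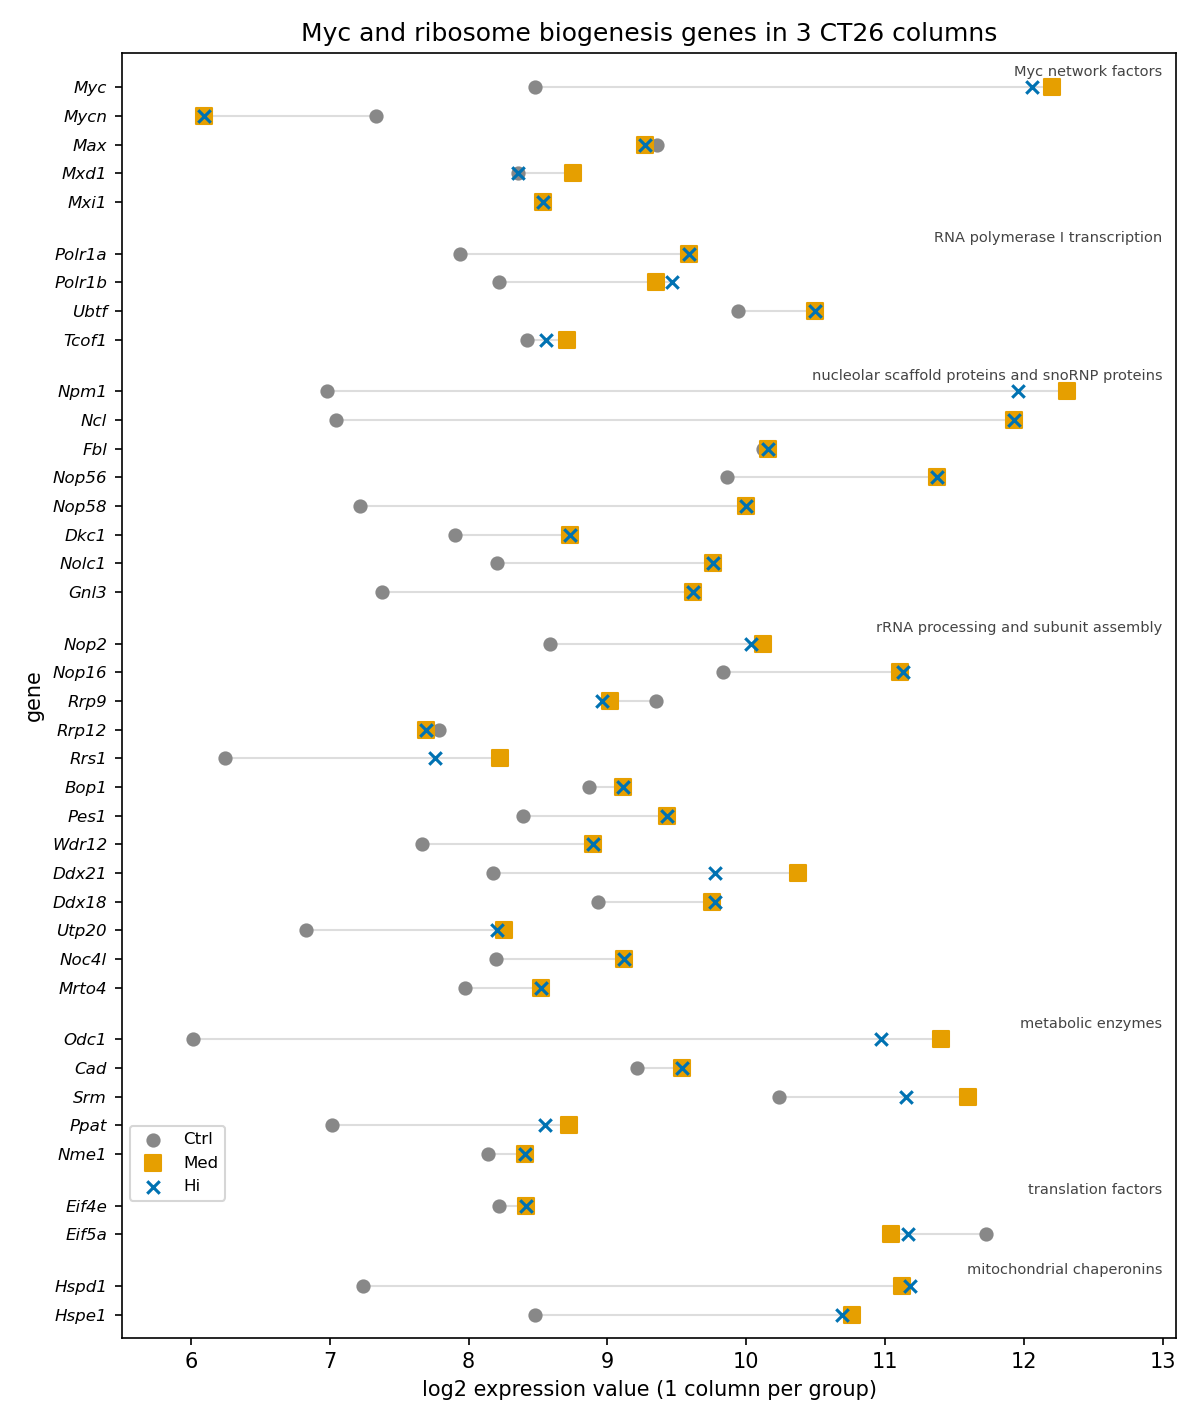
Log2 expression value (horizontal axis) of the 39 measured genes (rows, grouped by role) in the Ctrl (grey circles), Med (orange squares) and Hi (blue crosses) columns, 1 value per column, with grey lines spanning the 3 values. Med and Hi lie on or next to each other for most genes, and Ctrl lies to the left for most of them, with Eif5a, Rrp9, Rrp12, Max and Mycn to the right.

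RNA polymerase I genes were higher than Ctrl at 2-fold in 2 of 4 members in Med and in Hi, where 34.9% and 33.5% of all genes past the filter were. With 4 genes such a count says little about the group. Polr1a, the largest catalytic subunit, was at 7.94 in Ctrl and at 9.59 in both Med and Hi. Polr1b, the other large catalytic subunit, was at 8.22, 9.35 and 9.47. Ubtf, which binds the ribosomal DNA promoter, was at 9.94, 10.50 and 10.50, and Tcof1, the nucleolar protein treacle, at 8.42, 8.71 and 8.56. Polr1a stayed over 2-fold in both comparisons under every scaling tried. Polr1b was under 2-fold with quantile normalization (0.48 for Med, 0.63 for Hi), and Ubtf and Tcof1 changed sign there (-0.61 and -0.45 for Hi).

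Nucleolar scaffold and snoRNP proteins had 6 of 8 members at least 2-fold higher than Ctrl in both columns, with a median difference of 1.90 in each. Over all genes past the filter, 34.9% in Med and 33.5% in Hi were, with medians of 0.42 and 0.39. Npm1 (nucleophosmin), an abundant nucleolar chaperone, was at 6.98 (Ctrl), 12.31 (Med) and 11.96 (Hi). Ncl (nucleolin), which binds nascent ribosomal RNA, was at 7.05 in Ctrl and 11.93 in each of Med and Hi. Gnl3 (nucleostemin), a nucleolar GTPase, was at 7.38 in Ctrl and 9.61 in each of Med and Hi. These were among the members furthest above Ctrl, and Npm1 and Ncl lay below the filter level in the Ctrl column. Npm1 has 3 further probe sets that are annotated to a further gene as well and were not used.

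The core proteins of one class of snoRNP lay at different distances from Ctrl. Nop58 was at 7.22 in Ctrl and 10.00 in Med and Hi. Nop56 was at 9.87 in Ctrl and 11.37 in both, a difference of 1.51 that was 0.32 for Hi with quantile normalization. Fbl (fibrillarin), the methyltransferase of the same particles, was at 10.12 in Ctrl and 10.16 in both. One of its probe sets held 10.92 in every column, and its sign against Ctrl turned with quantile normalization (-1.07 for Hi). Dkc1 (dyskerin), the pseudouridine synthase of the other class, was at 7.90 in Ctrl and 8.73 in Med and Hi. Nolc1, which accompanies snoRNPs, was at 8.21 in Ctrl and 9.76 in both, under 2-fold for Hi with quantile normalization (0.91).

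Factors of ribosomal RNA processing and subunit assembly were 2-fold higher than Ctrl in 7 of 13 members, in Med and in Hi, with a median of 1.03 in both, against 34.9% and 33.5% of all genes and medians of 0.42 and 0.39. Ddx21, an RNA helicase that links polymerase I transcription to processing, was at 8.18 (Ctrl), 10.37 (Med) and 9.78 (Hi). The helicase Ddx18 was at 8.93, 9.76 and 9.78, and its 2 probe sets differed from Ctrl by 0.24 and 1.46 in Hi. Rrs1, which in yeast helps to build the large subunit, was at 6.24, 8.23 and 7.75. Utp20, a part of the small subunit processome, was at 6.83, 8.26 and 8.21. Nop2, an RNA methyltransferase, was at 8.59, 10.12 and 10.04, and the large subunit factor Nop16 at 9.83, 11.11 and 11.13. With quantile normalization Nop16 differed from Ctrl by 0.06 in Med and 0.13 in Hi, and Nop2 by 0.68 and 0.65. With columns centred on genes past the filter Utp20 differed by 0.83 and 0.84, so these calls depend on the scaling.

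Pes1, Bop1 and Wdr12 form a complex needed for the large subunit. Pes1 was at 8.39 in Ctrl and 9.43 in Med and Hi, Wdr12 at 7.66 and 8.90, and Bop1 at 8.87 and 9.11. Pes1 and Wdr12 were thus 2-fold higher as deposited, while Bop1 differed by 0.25 and by -0.53 for Hi with quantile normalization. With that scaling Pes1 differed by 0.36 and Wdr12 by 0.94 in Hi. The remaining factors were less than 2-fold apart as deposited. Noc4l, a small subunit factor, was at 8.19 in Ctrl and 9.12 in each of Med and Hi, and Mrto4 at 7.97 and 8.52. Rrp12, which in yeast acts in subunit export, was at 7.79 in Ctrl and 7.69 in both. Rrp9, a protein of the snoRNP that guides early cleavage, was at 9.35, 9.02 and 8.96. Rrp9 was 2-fold lower with quantile normalization (-1.29 in Med, -1.30 in Hi), and Noc4l 2-fold higher with columns centred on probe sets (1.23 and 1.22).

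Of the metabolic enzymes, Odc1 stood furthest above Ctrl. Odc1, the rate-limiting enzyme of polyamine synthesis, was at 6.02 (Ctrl), 11.41 (Med) and 10.97 (Hi), and both of its probe sets were over 2-fold higher (4.41 and 5.51 in Hi). Srm, which makes spermidine from the product of Odc1, was at 10.24, 11.60 and 11.15. Its difference of 0.91 in Hi was -0.31 with quantile normalization. Ppat, the enzyme of the first committed step of purine synthesis, was at 7.02, 8.72 and 8.55. Cad, which starts pyrimidine synthesis, was at 9.21 in Ctrl and 9.54 in each of Med and Hi, and Nme1, a nucleoside diphosphate kinase, at 8.14 and 8.40. For Cad and Nme1 the sign turned with quantile normalization (-0.62 and -0.21 in Hi).

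The mitochondrial chaperonins were 2-fold higher than Ctrl and the translation factors were not. Hspd1 (the chaperonin itself) was at 7.23 (Ctrl), 11.12 (Med) and 11.18 (Hi), and its lid Hspe1 at 8.48, 10.76 and 10.69. The 2 genes are neighbours on opposite strands, and the upstream RefSeq start of Hspd1 lies 95 bases from that of Hspe1. RefSeq lists 5 pseudogenes named for Hspd1 and 7 for Hspe1, which such probe sets may also read. The same holds for Mrto4, with 2 such pseudogenes, and Fbl, with 1. Eif4e, the cap-binding protein, was at 8.22 in Ctrl and 8.41 in each of Med and Hi, with 3 probe sets that differed from Ctrl by 0.10, -0.62 and 1.10 in Hi. Eif5a, the factor modified with spermidine, was at 11.73, 11.05 and 11.17, lower than Ctrl under every alternative tried (between -1.68 and -0.27 in Hi).

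Over the members as a set, 20 of 38 were at least 2-fold higher in Hi than in Ctrl (52.6%) and 0 lower, where 33.5% of all genes past the filter were higher and 8.4% lower. In Med 21 were higher (55.3%) and 0 lower, against 34.9% and 8.7% of all genes. With Mycn included 1 of 39 was lower in each. The median difference was 1.13 for Hi and 1.18 for Med, against 0.39 and 0.42 over all genes past the filter. Over all 19938 genes, without the filter, it was -0.19 and -0.20, so the difference from Ctrl was not alike at all expression levels. Median levels of members and of all genes past the filter were 8.22 and 8.07 in Ctrl, 9.57 and 8.67 in Med, and 9.57 and 8.61 in Hi. Levels were not matched, and their part in the member differences was not tested. Of the 38, 6 lay below the filter level in Ctrl (Odc1, Npm1, Ncl, Rrs1, Utp20 and Ppat), so they passed through their Med and Hi values and had to differ. That is 15.8% of members, beside 13.2% of all genes past the filter. Among genes 2-fold higher in Hi, 6 of 20 members and 1076 of 3335 of all genes lay below that level. Both comparisons use the same Ctrl column and are not separate evidence. The members were chosen with earlier results of these data known, so their excess over all genes is not independent of the data.

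The scaling of the columns sets how many members count as 2-fold higher. Centring each column on its median over probe sets adds 0.30 to each Med and 0.29 to each Hi difference. It gave 24 members higher in each, beside 42.1% of all genes past the filter in Med and 40.6% in Hi. Under it 0 members were lower, beside 4.7% and 4.17% of all genes. Quantile normalization put 13 members above and 4 below Ctrl in Med, and 12 above and 4 below in Hi, beside 25.6% above and 17.6% below over all genes in Med, and 25.2% and 16.6% in Hi. Centring on genes past the filter takes 0.60 and 0.54 from the differences and left 12 and 11 members higher and 1 lower, beside 22.9% and 22.4% of all genes higher and 17.5% and 16.4% lower. Members at least 2-fold higher than Ctrl in Hi under the deposited values, these 3 scalings and the choice of the brightest probe set numbered 9. They were Myc, Odc1, Npm1, Ncl, Nop58, Gnl3, Polr1a, Hspd1 and Hspe1. In Med there were 12, these and Rrs1, Ddx21 and Ppat. Among them Odc1, Npm1, Ncl, Rrs1 and Ppat lay below the filter level in Ctrl and passed through Med and Hi. The share of all genes meeting the same rule is not given, so these counts have no background to be read against. The sign changed with the setting in 13 members in each comparison.

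**Figure D2:**
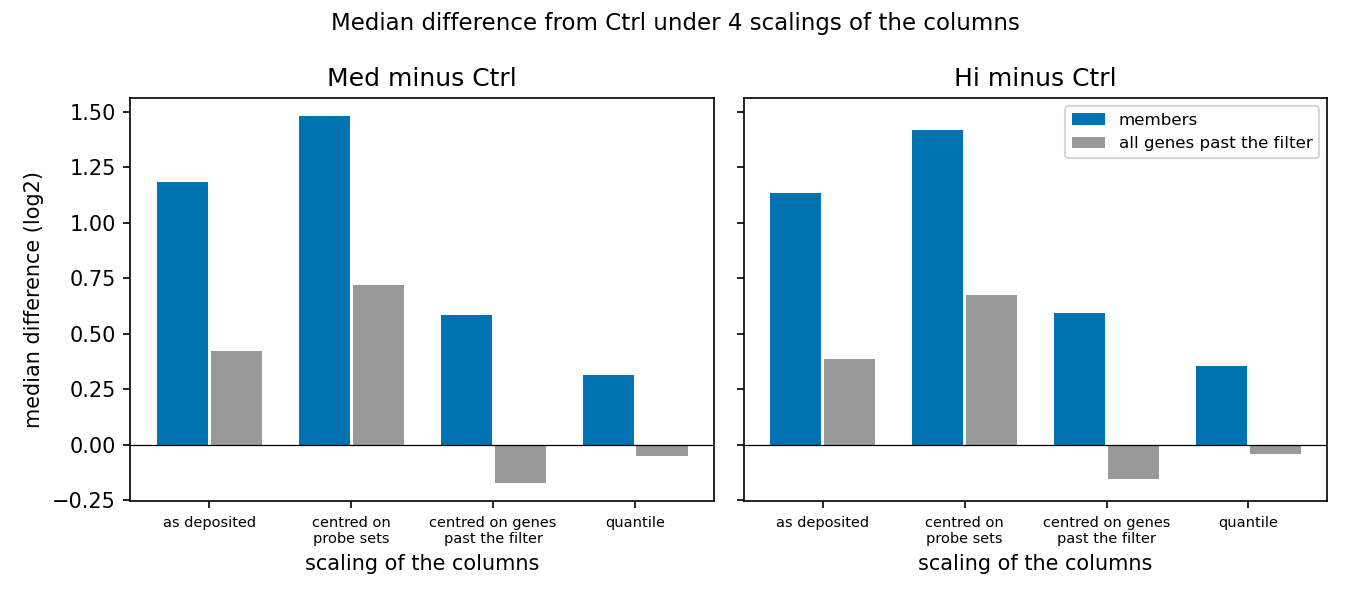
Median difference from Ctrl (log2, vertical axis) over the 38 members past the filter (blue bars) and all 9969 genes past it (grey bars), for Med minus Ctrl (left) and Hi minus Ctrl (right) under 4 scalings of the columns. The member median is above 0 under each, from 0.31 to 1.48 for Med and from 0.36 to 1.42 for Hi, while the median of all genes lies below 0 under the last 2.

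High against medium levels of the cluster is the comparison that leaves the Ctrl column out of the difference. Of 38 members 19 were identical between Hi and Med, and 6 were lower in Hi by 1.25-fold or more, a threshold chosen after the values were seen. At that threshold 15.8% of members were lower and 0 higher, where 8.97% of all genes past the filter were lower and 4.09% higher. No member was 2-fold apart (0 of 38 in each direction), where 0.682% of genes were 2-fold higher and 0.863% lower. By any amount, 14 members were lower in Hi (36.8%), 5 higher (13.2%) and 19 identical (50.0%), against 31.3%, 22.8% and 45.9% of all genes. The member shares that were lower or identical thus lay near those of all genes. The balance turned with the scaling, mainly because the 19 exact ties all took a small difference of the same sign. Quantile normalization gave 25 higher and 13 lower, and centring on genes past the filter 27 higher and 11 lower. Centring on probe sets gave 5 higher and 33 lower. Among members that were not ties, the sign turned in 1, 3 and 0 under these scalings, in that order. Shares of all genes by any amount are not given for these scalings.

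Ddx21 was the member furthest lower in Hi, at 9.78 in Hi and 10.37 in Med (-0.60). Rrs1 was at 7.75 in Hi and 8.23 in Med (-0.47). In the polyamine pathway Srm was at 11.15 in Hi and 11.60 in Med (-0.45), and Odc1 at 10.97 in Hi and 11.41 in Med (-0.43). The probe sets of Odc1 differed by -0.29 and -0.58. The repressor Mxd1 was at 8.36 in Hi and 8.75 in Med (-0.40), and Npm1 at 11.96 in Hi and 12.31 in Med (-0.35). Ddx21, Rrs1, Srm and Odc1 passed 1.25-fold under every scaling tried, and Mxd1 and Npm1 did not (at the least, -0.32 and -0.30). Receptor genes had an SD of 0.09 over genes for this difference, with 8 of 1194 lower and 12 higher by 1.25-fold. That spread is of genes mostly near the floor and holds many ties. It thus does not measure how far separate clones differ at the levels of these members, which 1 column a group cannot show.

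Smaller differences followed for Ppat (-0.17), Myc (-0.15) and Tcof1 (-0.15). On the other side Eif5a (0.12) and Polr1b (0.12) were the furthest higher in Hi. Nucleolar scaffold and snoRNP members were identical between the columns in 7 of 8, with Npm1 the exception. Metabolic enzymes had 3 of 5 lower and 2 identical, with a median of -0.17. Over all genes past the filter 45.9% were identical and 31.3% lower. With 8 and 5 genes such counts say little about a role. Med lay strictly between Ctrl and Hi in 5 of 38 members (13.2%), namely Nop16, Rrp9, Ddx18, Polr1b and Hspd1, against 16.9% of all genes past the filter. Quantile normalization and centring on genes past the filter each gave 17 of 38, mainly because exact ties then took a small difference. The share of all genes is not given for these scalings.

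**Figure D3:**
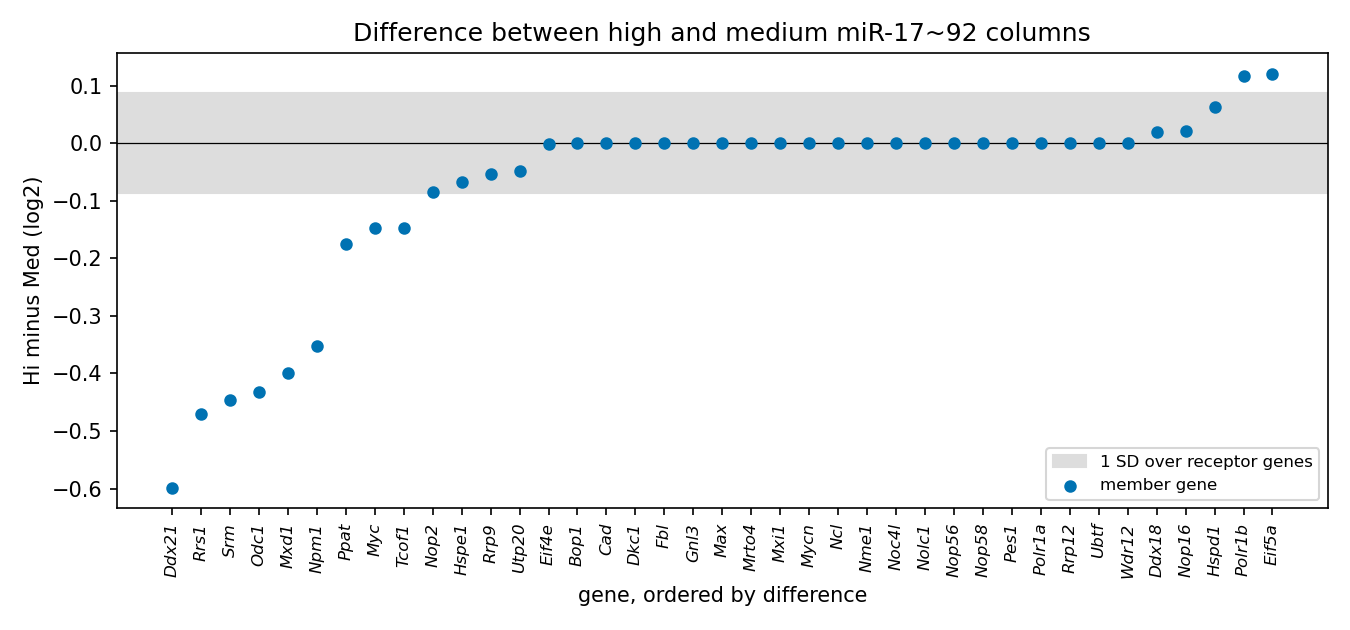
Hi minus Med difference (log2, vertical axis) of each of the 39 measured members (points), ordered from lowest to highest. A grey band shows 1 SD over receptor genes on either side of 0. These genes lie mostly near the floor, and the band is no measure of spread between clones. Ddx21, Rrs1, Srm, Odc1, Mxd1 and Npm1 lie from -0.60 to -0.35, and 20 members, Mycn among them, lie on 0.

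Members past the filter, with and without an E-box in a promoter window, were set side by side, with no test. The median difference from Ctrl in Hi was 0.65 over 8 members with an E-box (-0.56 to 3.95), and that of 22 members with a window and no E-box was 1.27 (-0.38 to 4.96). For Hi minus Med the median was 0 in both, with ranges of -0.09 to 0.12 with the E-box and -0.60 to 0.12 without. Myc, Npm1, Fbl, Rrp12, Rrs1, Bop1, Tcof1 and Srm have no window and are not part of these counts. Mycn and Ppan (no E-box) and Impdh2 (with an E-box) have a window but are left out too. Mycn was below the filter, and Ppan and Impdh2 have no value.

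Other genes of the same pathways, also listed with earlier results of these data known, were counted in the same way. The 8 further lists held 172 genes that passed the filter. Of these, 85 were at least 2-fold higher in Hi than in Ctrl (49.4%) and 3 lower (1.74%), with a median of 0.98, beside 33.5% and 8.4% of all genes past the filter and a median of 0.39. Of the 172, 34 lay below the filter level in Ctrl (19.8%, beside 13.2% of all genes past the filter). They passed through Med and Hi, so they had to be higher. Of the 85, 28 are among them, where 1076 of the 3335 higher genes over all were. In Hi against Med, 58 were lower (33.7%), 33 higher (19.2%) and 81 identical (47.1%), close to the shares over all genes. Large subunit factors were higher than Ctrl in Hi at 2-fold in 23 of 35 and small subunit factors in 23 of 50 with 1 lower. Further snoRNP genes were higher in 6 of 9, further polymerase I and III genes in 7 of 17 and chaperones in 13 of 16. Nucleotide and polyamine genes were higher in 7 of 19, translation initiation genes in 4 of 13 with 1 lower, and further Myc network factors in 2 of 13 with 1 lower. The shares of the polymerase, nucleotide and translation lists are near that of all genes. Genes named next with a Ctrl value under 7.13 passed the filter in the same way, and the size of their differences from Ctrl rests on low signals.

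Within the assembly lists, Brix1, a large subunit factor, was at 4.63 (Ctrl), 10.35 (Med) and 10.30 (Hi), and Nifk at 6.59, 11.15 and 11.19. The Ctrl value of Brix1 is under the receptor gene median of 4.92, so it cannot be told from background. Rsl24d1 (9.16 in Hi, 9.86 in Med) and Lyar (8.70 in Hi, 9.25 in Med) were the large subunit genes furthest apart between Hi and Med. For the small subunit, Nol11 was at 6.13, 9.85 and 9.71 across Ctrl, Med and Hi, and the kinase Riok2 at 6.09, 9.87 and 9.61. Ltv1 (7.55 in Hi, 8.15 in Med) and Imp3 (11.50 in Hi, 12.06 in Med) were furthest apart between Hi and Med.

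In the transcription lists, Taf1a, a subunit of the polymerase I selectivity factor, was at 6.21, 8.87 and 9.01 across Ctrl, Med and Hi, and Rrn3, which recruits the polymerase, at 7.07, 9.67 and 9.76. Taf1b (7.78 in Hi, 8.12 in Med) and Taf1d (9.16 in Hi, 9.47 in Med) were lower in Hi than in Med. Of the Myc network, Mga, another partner of Max, was at 7.34, 9.54 and 9.40. The Myc cofactor Trrap was at 7.84, 9.04 and 9.26, and the deubiquitinase Usp28 at 7.40, 8.09 and 7.89. In the snoRNP list, the assembly factors Nufip1 and Rpap3 were at 6.99, 9.45 and 9.45 and at 5.99, 7.67 and 7.83. That list and its count also hold Nop53 (6.45, 10.64 and 10.47), which is known as a large subunit factor.

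In metabolism, Sat1, which breaks down polyamines, was higher in Hi (10.54) than in Med (10.10), opposite to Odc1 and Srm, and was at 8.19 in Ctrl. The purine enzyme Adss was at 9.08, 10.81 and 10.60, the nucleotide enzyme Ctps2 at 6.50, 9.26 and 9.31 and Prps1 at 7.99, 10.78 and 10.69. Of the translation genes, Eif4b was at 8.20 in Ctrl and 12.08 in each of Med and Hi, and Eif3b at 8.50 and 11.34. Eif4ebp1, an inhibitor of Eif4e, was at 9.95 in Hi and 10.39 in Med, and Eif3d at 11.41 in Hi and 11.08 in Med. Of the chaperones, Hspa9, the mitochondrial partner of Hspd1 in folding, was at 7.52, 12.01 and 11.86. Of the cytosolic chaperonin subunits, Cct5 was at 11.23 in Hi and 10.85 in Med, and Tcp1 was at 11.73 in Hi and 12.03 in Med. Cct6a was at 6.77, 11.25 and 10.96 across Ctrl, Med and Hi.

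**Figure D4:**
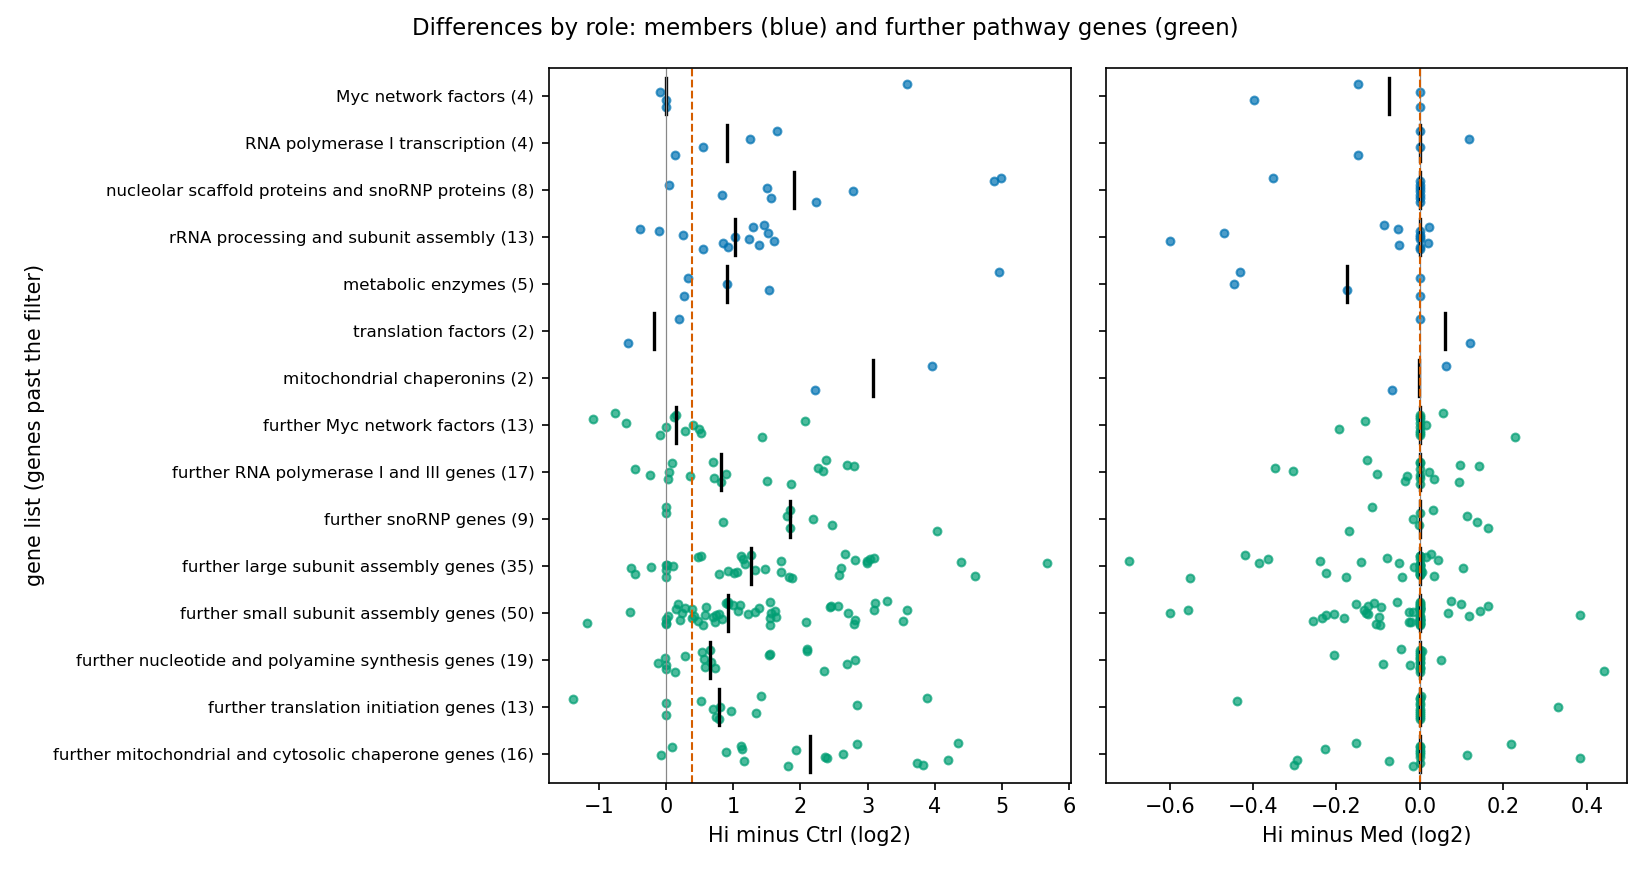
Hi minus Ctrl (left) and Hi minus Med (right) differences (log2, horizontal axes) of each gene past the filter, by list (rows, gene counts in brackets), with members in blue and further pathway genes in green. Black bars are list medians and dashed lines the median of all genes past the filter (0.39 and 0). The 2 chaperonin members have a median of 3.08 on the left, and 19 of the 38 members lie at 0 on the right.

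Cytosolic ribosomal protein genes, whose products these factors assemble, were set beside the members. They were matched by symbol, which also took in the like-named genes Rpl7l1, Rpl32l, Rps27l and Rps4l. Of 58 past the filter, 38 were 2-fold higher in Hi than in Ctrl (65.5%) and 2 lower (3.45%), with a median of 1.70. Over all genes 33.5% were higher and 8.4% lower. The 2 lower ones were Rpl24 (-1.03) and Rps4l (-1.37). Against Med, 45 of the 58 were lower in Hi (77.6%, beside 31.3% of all genes), 4 higher and 9 identical, with a median of -0.06. By 1.25-fold 5 were lower (8.62%), near the 8.97% of all genes. Rpl19 counts as higher by 6e-06. A gene averaged over several probe sets keeps an exact tie only where all of them tie. Shares by any amount thus depend on probe sets per gene, which were not compared here. The members were lower in 36.8% and identical in 50.0%, and the difference between these shares was not tested.

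**Figure D5:**
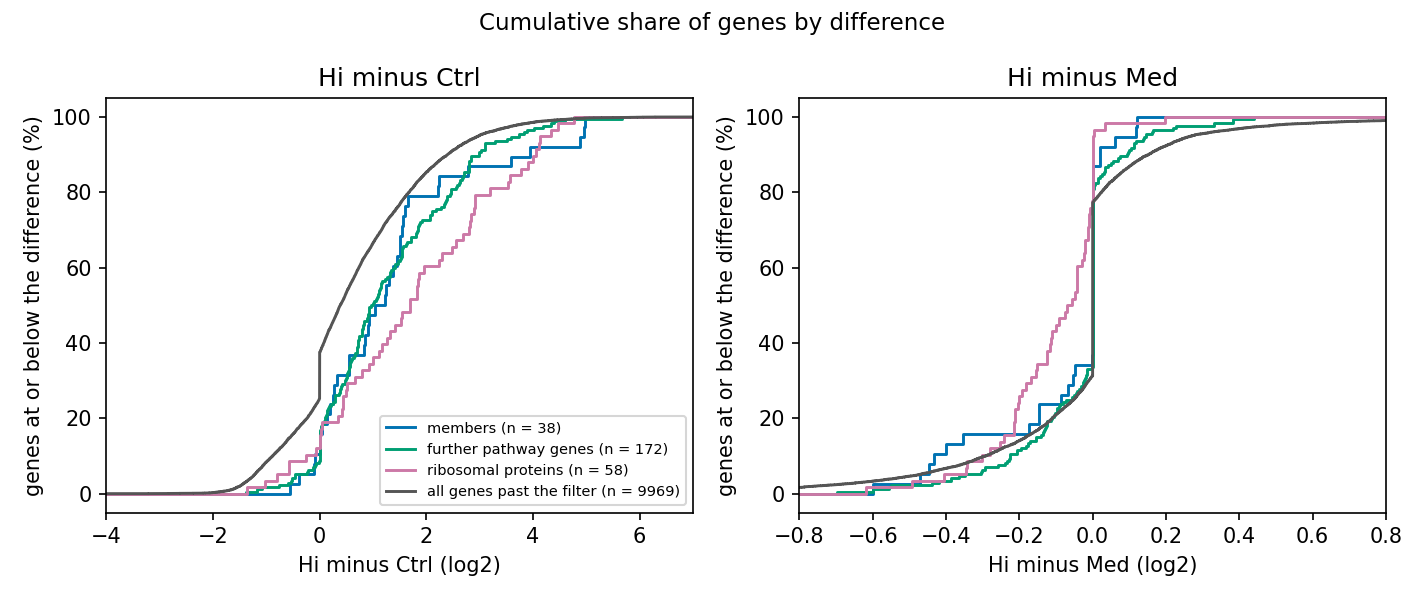
Share of genes (vertical axis, %) at or below a given difference (log2, horizontal axis) for Hi minus Ctrl (left) and Hi minus Med (right), for 38 members (blue), 172 further pathway genes (green), 58 ribosomal protein genes (pink) and all 9969 genes past the filter (grey). Members and further genes lie to the right of all genes over most of the left panel, and on the right panel the ribosomal protein curve has 77.6% of its genes below 0.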

How the data were processed

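RNA of 3 groups of CT26 lines was hybridized to Affymetrix arrays, per the labels' protocols after amplification of 100 ng with random primers. The authors deposited normalized log2 values for 35556 probe sets. The base is taken from the range of the values. Affymetrix Expression Console and GCRMA are named per the submitters' processing notes, with no role, order or version. Any scaling between arrays came before deposit, and depth does not apply to an array: their number, 1 a group, limits the precision.

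Gene symbols came from GEO's platform annotation, with 21789 single-gene probe sets, of which 21698 were matched by gene number to RefSeq (GRCm38.p6). Probe sets of a gene were averaged. Unmapped columns numbered 0. Counts use 2-fold (1 on the log2 scale) without any test. Python 3.11.15, pandas 2.3.3 and numpy 2.4.6 were used, and the counting was tested on simulated data.

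The members and lists were chosen with earlier results of these data known. Named genes are all members and, per further list, the 2 genes with the largest Hi minus Med and the 2 with the largest Hi minus Ctrl difference. Alternatives were 2 filters, centring, quantile normalization, the brightest probe set per gene and 1.5-fold, and, added after seeing the data, centring on genes past the filter.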

Additional observations from a re-analysis of the deposited data

How the results depend on the processing

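Of the recomputed counts and medians over the members, 72 stayed within 1.5 times the count, or within 1 SD over receptor genes for a median, and 24 did not. With quantile normalization, members 2-fold higher numbered 13 in Med and 12 in Hi against Ctrl, members lower 4 in each, and the medians were 0.31 and 0.36. Members higher by any amount in Hi against Med then numbered 25, identical ones 0, and those with Med between Ctrl and Hi 17. With columns centred on genes past the filter, chosen after seeing the data, 12 and 11 were higher and 1 lower in each, with medians of 0.59 and 0.59. Members higher in Hi than in Med then numbered 27, identical ones 0, and those with Med between 17. With columns centred on probe sets, 33 were lower in Hi than in Med and 0 identical, because exact ties move together. Without the filter 1 member, Mycn, was 2-fold lower than Ctrl in each column. At 1.5-fold, 1 member was lower in Med than in Ctrl (Eif5a) and 1 lower in Hi than in Med (Ddx21). No paired analysis was possible because each group had 1 column. Low signals near the receptor genes may be background, so differences from them are uncertain in size.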
